A study of Homo sapiens with 10 samples.

Results

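Cells transfected with an siRNA against GFP were compared with cells that received no siRNA, in HEK293 cells, an established human line derived from embryonic kidney. The comparison used 3 of the 10 mRNA-seq libraries of the series: 1 GFP siRNA library and 2 untreated libraries, A and B. All 3 came from polyadenylated RNA of cells without 4-thiouridine (4SU), a uridine analogue, and without ultraviolet crosslinking, so the siRNA was the only labelled difference. The 1 library of the HuR siRNA group, which targets the RNA-binding protein HuR and likewise had neither 4SU nor crosslinking, is shown beside the GFP siRNA library where it helps. The other libraries came from cells with 4SU, crosslinking or both. The sequence, dose and duration of the siRNA and the transfection reagent are not stated in the labels, nor is it said whether the untreated libraries came from separate cultures.

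An siRNA is a short double-stranded RNA whose guide strand is loaded into an Argonaute protein, which then cuts RNAs that match the guide. GFP is a jellyfish protein with no human counterpart, so an siRNA against it serves as a control for the transfection itself, for the lipid carrier and for the load placed on the small RNA machinery. Long double-stranded RNA, and some siRNAs, can be sensed by cytoplasmic receptors or by Toll-like receptors, which turn on interferon-stimulated genes. HEK293 cells express few Toll-like receptors. Seed matches can also lower unintended transcripts, but without the siRNA sequence they could not be searched for.

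The GFP siRNA library held 8688262 tags, against 3099769 in untreated library A and 2396069 in untreated library B. The HuR siRNA library held 9016803 tags, and no library without siRNA held more than untreated A. The labels do not say whether the siRNA libraries were prepared or sequenced apart from the others. An effect of the siRNA therefore cannot be told apart from such a difference, also where both siRNA libraries lie on 1 side. A count of 3 tags equals 0.345 CPM (the count scaled by library total) in the GFP siRNA library, 0.968 CPM in A and 1.25 CPM in B. No human transcript can serve as a check of the GFP label. ELAVL1, which encodes HuR, checks the other one: it stood at 73.0 CPM in the HuR siRNA library, at 207 CPM in the GFP siRNA library, and at 225 and 312 CPM in untreated A and B. Of the kidney line's own markers, IRS4, an adaptor of insulin signalling that is typical of HEK293, had 678 CPM with GFP siRNA, against 377 and 423 CPM in A and B. VIM, the intermediate filament vimentin, is a usual HEK293 marker too, but was listed at only 0.543 CPM with GFP siRNA, against 15.6 CPM in A and 0 in B. KRT8, DDC and TUBB3 were below 1 CPM in all of these libraries. Of 8 blood cell markers in the files none reached 5 CPM in any of the 3 libraries, and their summed level was 2.39 CPM with GFP siRNA against 2.27 and 1.71 CPM.

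The 2 untreated libraries were not alike, and the GFP siRNA library was closer to B than A was. Over 12467 genes with an average level of at least 5 CPM, GFP siRNA and B differed by a median of 0.37 on the log2 scale, GFP siRNA and A by 0.57, and A and B by 0.50. Pearson's r of log2 CPM across these genes, which are not independent points, was 0.929 between GFP siRNA and B, 0.870 between GFP siRNA and A, and 0.914 between A and B. At least 2-fold apart were 2827 genes (22.7%) between GFP siRNA and A, 1385 (11.1%) between GFP siRNA and B, and 1827 (14.7%) between A and B. The differences from A ran with transcript length. In the shortest of 5 length bins the median log2 difference was -0.29 between GFP siRNA and A and 0.05 between GFP siRNA and B, and in the longest bin it was 0.48 and 0.00. The tag-weighted median transcript length was 3020 nt with GFP siRNA, against 2666 nt in A and 3029 nt in B, and genes of cytosolic ribosomal proteins took 4.97% of tags with GFP siRNA, against 6.60% and 5.05%. The part of library composition in the results below was not tested beyond the length correction given with them.

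**Figure D1:**
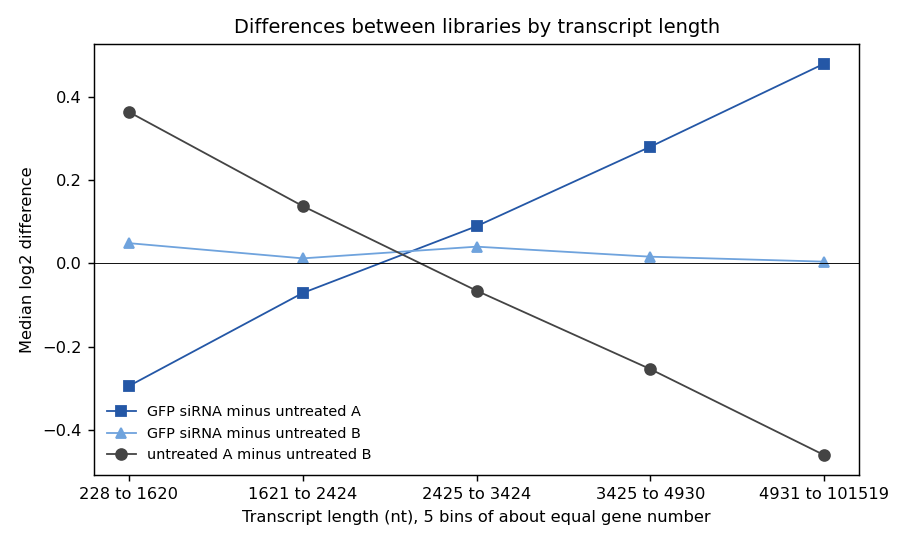
Median log2 difference in CPM (y axis) over 12467 genes in 5 bins of transcript length in nucleotides (x axis), for GFP siRNA minus untreated A (squares), GFP siRNA minus untreated B (triangles) and untreated A minus untreated B (circles). The line against A climbs from -0.29 in the shortest bin to 0.48 in the longest, while the line against B stays between 0.00 and 0.05.

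Because of this spread a gene was taken to stand apart only where the GFP siRNA level was at least 2-fold above, or at least 2-fold below, both untreated libraries, and lay farther from the nearer of them than they lay from each other. By this rule 375 genes (3.01%) were higher and 266 (2.13%) were lower with GFP siRNA, 641 (5.14%) in all. Of these, 310 higher and 212 lower genes have a gene symbol and the rest are transcripts without one. The filter of 5 CPM took the average of the GFP siRNA level and the untreated mean. A gene could thus pass only through the group where it was high, and the list shares below include such genes. Most of the higher genes were weakly expressed. Of the genes with a symbol, 49 of the 310 higher and 96 of the 212 lower genes lay above the median level of 37.9 CPM. Scaled to library totals alone, 508 genes were higher and 200 lower, and the median log2 ratio of all genes moved to 0.18 from 0.07, so the balance between the directions depends on the scaling. With the length trend removed, 333 were higher and 334 lower, including 296 of the 375 and 248 of the 266.

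A library without a replicate gives no error of its own. An edgeR quasi-likelihood fit of all 10 libraries assumes that it varies like the 4 groups of 2, and at an adjusted p of 0.05 it called 52 of 15021 genes higher (0.346%) and 106 lower (0.706%) with GFP siRNA. Of the 641 genes standing apart, 121 were called in the same direction. In a fit of the 3 compared libraries alone 6 genes were called higher and 24 lower. Unadjusted p-values lay under 0.05 for 2244 genes (14.9%) in both directions together, the background for all list counts at that p below. All p-values rest on the differences among replicate libraries, which may be no more than technical, and in RNA from whole cultures fewer cells of a kind and less RNA per cell cannot be told apart. Of the genes named below as rising or falling, MID1IP1, NEFL, TXNIP, PCDH9, SERTAD1, HEXIM1, POLR2A, LFNG, NGFR, ACTG1 and ATP5F1A were also called in the fit of the 3 compared libraries, and the others were not. DESeq2 did not call BHLHE40, BHLHE41, CEP57, N4BP2L2, SALL2, TCEAL9, ACVR2B, ALDH1L2, STC1, H2BC11, H2BC12, SLC15A1 or SLC2A3. "Rose" and "fell" are used below of genes called in the fit of 10 libraries, and levels alone are given for the others.

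**Figure D2:**
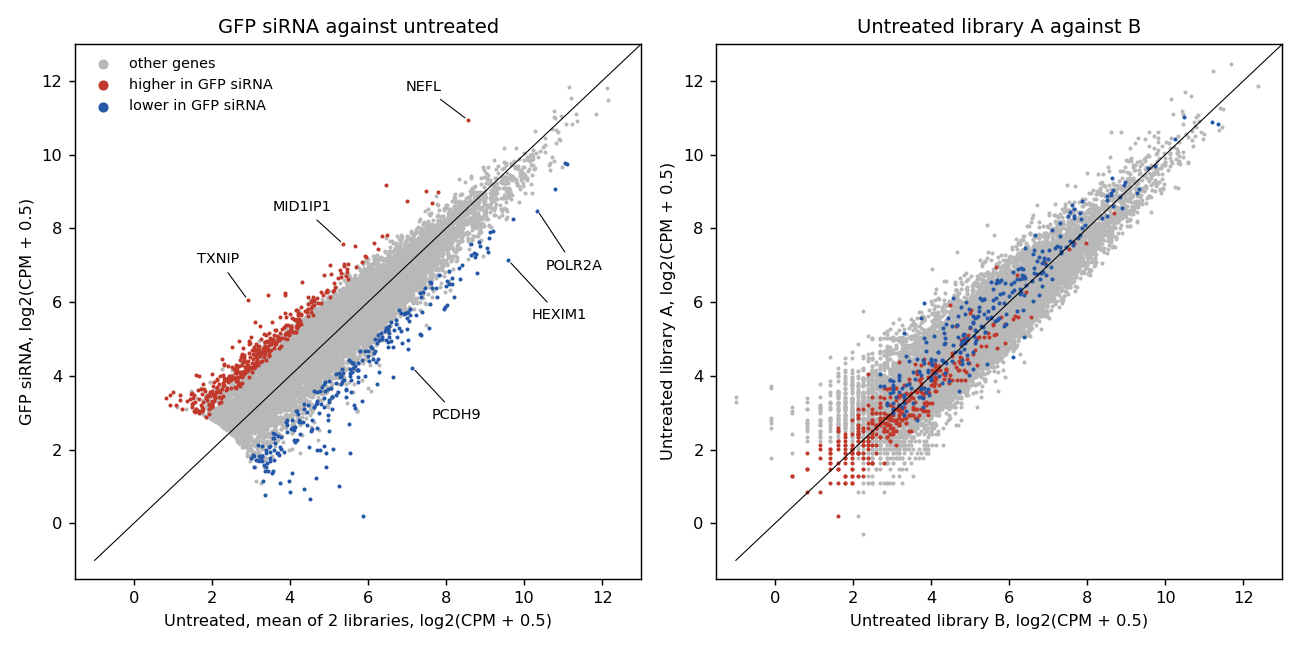
Left, level of each of 12467 genes in the GFP siRNA library (y axis) against the mean of the untreated libraries (x axis), both as log2(CPM + 0.5), with the 375 higher genes in red and the 266 lower genes in blue. Right, untreated library A against untreated library B for the same genes and colours, where 1827 genes lie at least 2-fold apart. The diagonal marks equal levels, and the coloured genes that leave it on the left spread along it on the right.

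The highest ratio of any named gene belonged to TXNIP (NM_006472), which lies below the median level and was picked out after its value was seen. TXNIP encodes an alpha-arrestin that binds thioredoxin and limits glucose uptake. It had 66.2 CPM with GFP siRNA and 58.8 CPM with HuR siRNA, against 6.48 and 7.69 CPM in untreated A and B. In tags that was 610 with GFP siRNA, against 20 and 18. The log2 ratio was 3.17, with a 95% counting interval of 2.77 to 3.75 that covers counting error only, and TXNIP rose in the edgeR fit (adjusted p 5.24e-05, and 1.9e-08 to 0.00101 over 11 other fits). ARRDC4 (NM_183376), a second alpha-arrestin, had 184 CPM with GFP siRNA and 132 CPM with HuR siRNA, against 41.8 and 59 CPM, and rose as well (log2 ratio 1.88, adjusted p 0.00513, and 0.176 in the fit of the 3 compared libraries). Both siRNA libraries were above both untreated libraries for each of the 2 genes.

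TXNIP and ARRDC4 are textbook targets of MondoA, a glucose-sensing transcription factor that binds carbohydrate response elements, which are built of a pair of E-box-like sites with a short spacer. Their promoters are shown because these 2 related genes moved together, and the motif was chosen after their values were seen. The 300-base RefSeq windows around the annotated starts (GRCh38.p14) were searched on both strands for such an element, taken as CACGNG, then any 5 bases, then CACGNG again, and for the E-box CACGTG alone. Of 35116 such windows 20 (0.057%) held the first and 2548 (7.26%) the second. The 250 bases before the start are printed 5′ to 3′ on the gene's strand, with the match in capitals. The first is chr1:145996580-145996829 on the minus strand, 1 of 2 TXNIP starts in the table, and the second is chr15:97960453-97960702 on the plus strand.
TXNIP: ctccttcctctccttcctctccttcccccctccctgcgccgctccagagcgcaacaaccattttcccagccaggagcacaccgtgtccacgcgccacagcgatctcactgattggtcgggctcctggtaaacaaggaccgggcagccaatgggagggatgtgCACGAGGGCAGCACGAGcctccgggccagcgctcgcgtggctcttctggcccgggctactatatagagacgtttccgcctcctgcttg
ARRDC4: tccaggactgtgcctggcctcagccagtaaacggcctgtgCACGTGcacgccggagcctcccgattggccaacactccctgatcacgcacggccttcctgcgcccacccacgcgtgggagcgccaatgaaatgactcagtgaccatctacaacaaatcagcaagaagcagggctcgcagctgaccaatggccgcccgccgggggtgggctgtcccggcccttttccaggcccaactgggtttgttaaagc
The TXNIP window held the 17-base match from 88 to 72 bases before the start, and the window of the other TXNIP start held none. The ARRDC4 window held CACGTG from 210 to 205 bases before the start and no match to the longer motif. Whether MondoA had a part in the levels of either gene was not tested.

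Among genes above the median level the highest ratios were in MID1IP1 and NEFL. MID1IP1, which activates acetyl-CoA carboxylase in fatty acid synthesis, had 190 CPM with GFP siRNA and 269 CPM with HuR siRNA, against 59.9 and 21.8 CPM in untreated A and B. It rose (log2 ratio 2.38, edgeR adjusted p 0.00225), although the untreated libraries themselves were 1.44 apart on the log2 scale. NEFL, the light subunit of neurofilaments, had 1959 CPM with GFP siRNA and 1653 CPM with HuR siRNA, against 342 and 413 CPM, the most abundant gene among those named here as higher. It rose with a log2 ratio of 2.38 and an edgeR adjusted p of 0.000877. The 3 neurofilament subunits did not move together. NEFM, the medium subunit, had 9.22 CPM with GFP siRNA against 1.62 and 4.70 CPM and did not stand apart. NEFH, the heavy subunit, named after its value was seen, fell to 1.63 CPM with GFP siRNA and 2.06 CPM with HuR siRNA, against 10.7 and 15 CPM (adjusted p 0.00551).

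BHLHE40, a transcriptional repressor of the circadian clock that is also induced by low oxygen, had 107 CPM with GFP siRNA and 98.3 CPM with HuR siRNA, against 31.1 and 26.5 CPM in untreated A and B. It rose with a log2 ratio of 1.88 and an edgeR adjusted p of 0.0112, which was 0.241 in the fit of the 3 compared libraries. Its paralogue BHLHE41, named after its value was seen, had 21.7 CPM with GFP siRNA and 28.1 CPM with HuR siRNA, against 3.89 and 4.70 CPM (adjusted p 0.0101). The siRNA libraries lay above both untreated libraries for each paralogue. Without untreated A the adjusted p of BHLHE41 was 0.0505.

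CETN3, the calcium-binding centrosomal protein centrin, had 93.3 CPM with GFP siRNA and 73.9 CPM with HuR siRNA, against 14.3 and 24.8 CPM (log2 ratio 2.29, edgeR adjusted p 0.00129). CEP57, a centrosomal protein that binds microtubules, had 107 CPM with GFP siRNA, against 27.5 and 38.0 CPM (1.72, adjusted p 0.0210). CCDC18 had 60.9 CPM with GFP siRNA, against 14.3 and 28.6 CPM, and DCDC2, a doublecortin-domain protein, had 69.7 CPM against 20.7 and 26.5 CPM, and neither was called by edgeR (adjusted p 0.0765 and 0.0543). CCDC18 was the 1 gene of these 4 whose HuR siRNA level, 28.7 CPM, lay at that of an untreated library.

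The other genes among the 15 highest had ratios of 1.55 to 1.69. SALL2, a zinc finger transcription factor, had 130 CPM with GFP siRNA and 166 CPM with HuR siRNA, against 52.2 and 31.2 CPM. RRAGD, a Rag GTPase that relays amino acid supply to mTORC1, had 111 CPM with GFP siRNA, against 26.6 and 51.3 CPM. CNOT6L, a deadenylase that shortens poly(A) tails, had 57.5 CPM against 17.5 and 20.5 CPM, and ACVR2B, an activin receptor, had 131 CPM against 41.8 and 47.4 CPM. N4BP2L2, TCEAL9 and C22orf46P had 70.4, 125 and 117 CPM with GFP siRNA, each above both untreated libraries. SALL2, N4BP2L2, TCEAL9, C22orf46P and ACVR2B rose in the edgeR fit, with adjusted p of 0.0234 to 0.0332, and RRAGD and CNOT6L were not called (0.0525 and 0.0577). Leaving out untreated A ended the calls of CEP57 (0.0651), N4BP2L2 (0.055), TCEAL9 (0.0827), C22orf46P (0.0737) and ACVR2B (0.0609), and SALL2 no longer stood apart once the length trend was removed. Split tags, shared out between several matching transcripts, make a level uncertain. From 11.9% to 89.6% of a gene's tags lay in libraries where its count was split for SALL2, CNOT6L, DCDC2 and ACVR2B here, and elsewhere for PCDH9, RAPGEFL1, RPS7, RBM14, POLR2A, GADD45B, NEFH, IFIT1, IFITM2, HSPA8, TNRC6A, ATF4, ALDH1L2, ARC, PDK1, H2BC5, H2BC12, RPS10, HOXB13, SLC2A3 and SLC15A1.

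Among the 15 lowest ratios HEXIM1 and POLR2A had the highest untreated levels. HEXIM1 (NM_006460), the inhibitor that holds the elongation kinase P-TEFb inactive in the 7SK complex, had 140 CPM with GFP siRNA and 149 CPM with HuR siRNA, against 798 and 750 CPM in untreated A and B. It fell by 2.46 on the log2 scale (edgeR adjusted p 0.00189), and the untreated libraries lay within 0.09 of each other. POLR2A, the largest subunit of RNA polymerase II, fell to 358 CPM with GFP siRNA, with 553 CPM under HuR siRNA, against 1377 and 1218 CPM (log2 ratio -1.86, adjusted p 0.0466). NXF1, the receptor that carries mRNA through the nuclear pore, fell to 55.8 CPM with GFP siRNA, with 90.5 CPM under HuR siRNA, against 259 and 233 CPM (log2 ratio -2.13, adjusted p 0.00305). RBM14, a coactivator and paraspeckle protein, fell to 69.6 CPM with GFP siRNA, against 397 and 195 CPM (log2 ratio -2.00, adjusted p 0.00661). Without untreated A the adjusted p was 0.0743 for POLR2A and 0.0524 for RBM14, and POLR2A was not called under upper-quartile factors, library totals or a filter of 5 CPM either.

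PCDH9 (NM_203487), a protocadherin of cell adhesion, had the lowest ratio above the median level: 18.2 CPM with GFP siRNA and 9.73 CPM with HuR siRNA, against 167 and 115 CPM in untreated A and B. It fell by 2.90 on the log2 scale (edgeR adjusted p 0.000293). SERTAD1, a transcriptional coregulator that binds CDK4, fell to 15.3 CPM with GFP siRNA, with 26.3 CPM under HuR siRNA, against 121 and 79.1 CPM (log2 ratio -2.65, adjusted p 0.000432). GADD45B, a stress-inducible regulator of the p38 and JNK kinases, fell to 16.6 CPM, against 72.2 and 83.3 CPM (log2 ratio -2.20, adjusted p 0.00436). FZD8, a Wnt receptor, fell to 30.8 CPM, against 178 and 83.8 CPM, and PLXNA3, a semaphorin receptor, to 26.9 CPM, against 118 and 82.1 CPM (adjusted p 0.0104 and 0.0226). For all 5 genes both siRNA libraries were below both untreated libraries. FZD8 was not called without untreated A (adjusted p 0.0738).

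The remaining lower genes of the 15 had ratios of -2.46 to -1.98. RAPGEFL1 fell to 13.2 CPM with GFP siRNA, against 79.4 and 69.2 CPM, and MPDU1, needed for the use of dolichol-linked mannose in glycosylation, to 38.6 CPM, against 222 and 158 CPM. CNNM4, a magnesium transporter, fell to 34.4 CPM, against 177 and 144 CPM, and CSRNP2 to 29.1 CPM, against 97.8 and 136 CPM. Adjusted p-values of these 4 genes in the edgeR fit were 0.00129 to 0.00618, and each was lost in the fit of the 3 compared libraries alone (0.060 to 0.201). RPS7, a protein of the small ribosomal subunit, had 111 CPM with GFP siRNA, against 501 and 389 CPM, with split tags and no call (adjusted p 0.0699). Below the median level, and named after their values were seen, LFNG, a glycosyltransferase that modifies Notch, fell to 1.41 CPM, against 19.8 and 20.5 CPM, and NGFR, the p75 neurotrophin receptor, to 3.58 CPM, against 47.0 and 20.9 CPM (adjusted p 0.000297 and 0.000344).

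**Figure D3:**
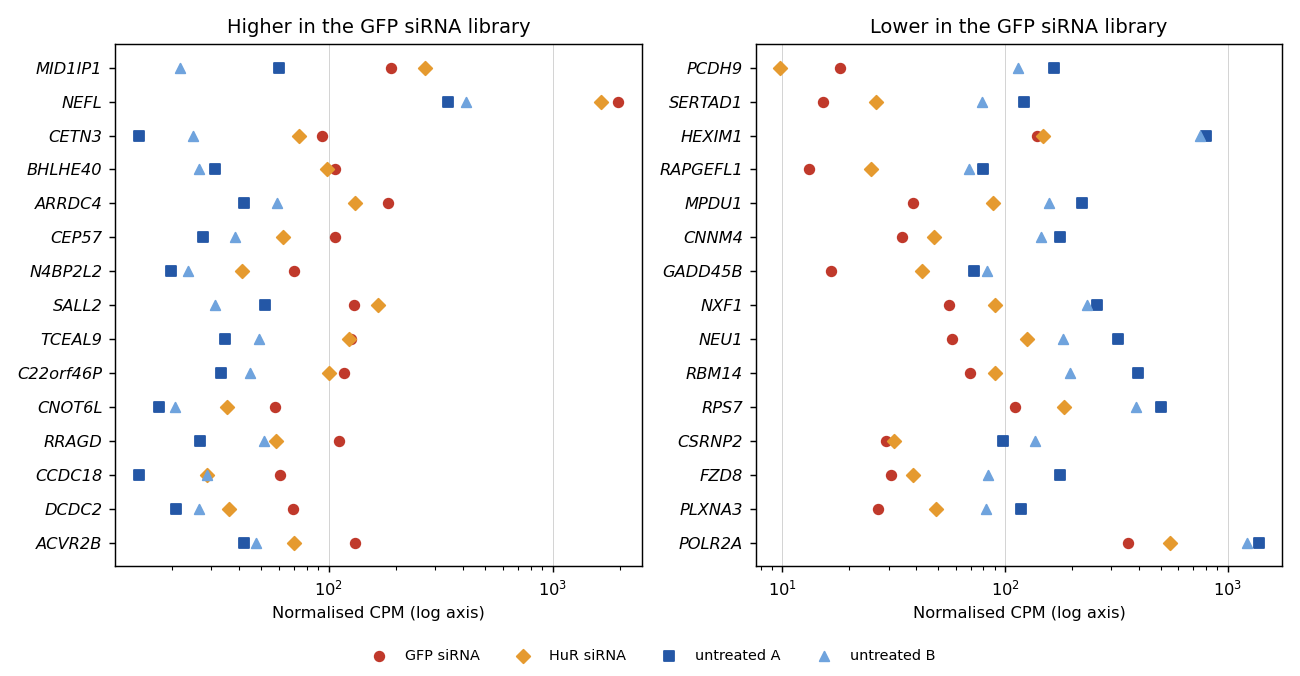
Normalised CPM on a log axis (x axis) of the 15 highest (left) and 15 lowest (right) ratios among named genes that stand apart and lie above the median level, 1 gene per row, in the GFP siRNA library (red circles), the HuR siRNA library (orange diamonds), untreated A (dark squares) and untreated B (light triangles). Each red circle lies outside the interval between the untreated marks. The HuR siRNA mark of PCDH9 lies at 9.73 CPM, below the GFP siRNA mark at 18.2 CPM.

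A pair of untreated libraries can itself be unusual, so the levels were also set against the 2 libraries of cells with 4SU and no crosslinking, which the rule had not used. This check was added after the values were seen, both comparisons share the GFP siRNA library, and levels were scaled over the 6 libraries without crosslinking. The 4SU libraries also differed from the untreated ones, and a gene can pass or fail for that reason. Of the lower genes 56 had a 4SU mean at least 2-fold below the untreated mean. Of the higher genes 38 had one at least 2-fold above it. Scaled over all 10 libraries, HEXIM1 had 97.5 and 163 CPM with 4SU, against 561 and 527 CPM untreated. PLXNA3 had 13.6 and 26.5 CPM, against 83.2 and 57.6 CPM. The part of 4SU was not tested. Of the 375 higher genes 204 (54.4%) were also at least 2-fold above both 4SU libraries, as were 11.5% of all genes compared. Of the 266 lower genes 122 (45.9%) were also at least 2-fold below both, as were 6.54% of all genes. Among the 15 highest ratios 13 passed, all but MID1IP1 and C22orf46P. Among the 15 lowest 8 passed, and PCDH9, HEXIM1, GADD45B, NEU1, CSRNP2, PLXNA3 and POLR2A did not. HEXIM1 differed from the mean of the 4SU libraries by -0.39 on the log2 scale, against -2.46 from the untreated mean, and PLXNA3 by -0.04 against -1.86. For NEFL the log2 difference was 3.05 from the 4SU mean and 2.38 from the untreated mean. For ARRDC4 it was 2.90 and 1.88, and for TXNIP 1.67 and 3.16. Of the other genes named after their values were seen, NGFR and NEFH passed, and LFNG and BHLHE41 did not. For LFNG the difference was -0.57 from the 4SU mean and -3.49 from the untreated mean, and for BHLHE41 0.91 and 2.24.

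Interferon-stimulated and RNA-sensing genes are those that transfected RNA can induce. Of 21 interferon-stimulated genes compared 1 stood apart higher (4.76%, against 3.01% of all genes) and 2 lower (9.52%, against 2.13%), with a median log2 ratio of 0.33 against 0.07 over all genes. IFIT1, which binds RNA with foreign 5′ ends, had 16.5 CPM with GFP siRNA and 6.29 CPM with HuR siRNA, against 4.54 and 6.84 CPM in untreated A and B. IRF7, the factor that amplifies interferon production, had 2.71 CPM with GFP siRNA, against 12.6 and 5.98 CPM. At 6.01 CPM on average, IRF7 passed the filter through the untreated libraries alone, so the share of lower genes partly follows from it. The membrane protein IFITM2 had 7.38 CPM, against 20.7 and 15.4 CPM. In edgeR none of 28 tested genes of this list was called, 3 had an unadjusted p under 0.05 in each direction (14.9% of all genes in both together), and DESeq2 called none. None of 16 RNA-sensing genes stood apart, and their median was 0.22. The receptors RIGI and IFIH1 had 10.5 and 11.2 CPM with GFP siRNA, with RIGI at 3.24 and 8.55 CPM and IFIH1 at 7.13 and 13.7 CPM in the untreated libraries. EdgeR called none of 18 tested, with 1 in each direction at an unadjusted p under 0.05, and DESeq2 called none. For IFITM2 and IRF7 the call of standing apart was lost when scaled to library totals.

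The small RNA machinery is what a transfected siRNA occupies. Of 24 genes compared none was higher and 1 was lower (4.17%, against 2.13% of all genes), with a median of -0.16. That median was 0.03 against A and -0.31 against B, so its direction depends on the untreated library. AGO2, the slicing Argonaute, had 27.2 CPM with GFP siRNA, against 28.5 and 32.9 CPM in untreated A and B. DICER1, which cuts small RNA precursors, had 174 CPM, against 128 and 249 CPM, and TNRC6A, the silencing scaffold, had 118 CPM, against 117 and 152 CPM. DICER1 and TNRC6A lay between the untreated libraries and AGO2 just below them. The lower gene was HSPA8, the constitutive heat shock protein that helps to load Argonaute, at 868 CPM with GFP siRNA and 703 CPM with HuR siRNA, against 1888 and 2352 CPM (edgeR adjusted p 0.201, with split tags). EdgeR called none of the 24, with 2 lower at an unadjusted p under 0.05, and DESeq2 called 1 lower.

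Few genes of the stress programmes stood apart. In the integrated stress response, the ATF4 programme set off by phosphorylation of eIF2alpha, 1 of 29 genes was higher and 1 lower. These shares, 3.45% each, lay near those of all genes, 3.01% and 2.13%, and the median was 0.01. ALDH1L2, a mitochondrial folate enzyme, rose to 29.3 CPM with GFP siRNA, against 7.13 and 7.69 CPM in untreated A and B (edgeR adjusted p 0.0252, 0.0654 without A, with split tags). The effector ATF4 had 341 CPM, against 336 and 417 CPM, and DDIT3, known as CHOP, 34.9 CPM, against 22.4 and 28.6 CPM. Of 22 heat shock genes 3 were lower (13.6%, against 2.13% of all genes) and none higher, with a median of -0.26. HSPA1B, the inducible 70-kilodalton chaperone, had 536 CPM with GFP siRNA and 904 CPM with HuR siRNA, against 2093 and 1422 CPM, and its co-chaperone DNAJB1 had 95.4 CPM and 97.8 CPM, against 320 and 201 CPM. Neither was called by edgeR (adjusted p 0.0952 and 0.0748), which called none of 24 tested, while DESeq2 called 1 lower. At an unadjusted p under 0.05 in edgeR none was higher and 5 were lower, against 14.9% of all genes in both directions. HSPA1B has the near-identical copy HSPA1A, at 179 CPM against 296 and 252 CPM, so reads could be shared between them. Of the endoplasmic reticulum chaperones none of 23 stood apart, with a median of -0.32. EdgeR and DESeq2 called none of them. At an unadjusted p under 0.05 in edgeR none was higher and 7 were lower, against the same 14.9%. HSPA8, HSPA1B and DNAJB1 differed from the mean of the 4SU libraries by -0.04, -0.21 and -0.37.

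Immediate-early genes, which respond to growth factors within minutes, split by gene. Of 28 compared 1 was higher (3.57%, against 3.01% of all genes) and 4 lower (14.3%, against 2.13%), with a median of -0.27. That median was -0.36 against A and -0.04 against B. SGK1, a kinase induced by serum and glucocorticoids, fell to 3.47 CPM with GFP siRNA and stood at 3.66 CPM with HuR siRNA, against 17.8 and 32.9 CPM in untreated A and B (log2 ratio -2.69, edgeR adjusted p 0.00305). The stress factor ATF3 had 51.0 CPM, against 138 and 105 CPM, the factor KLF4 had 9.01 CPM, against 29.5 and 20.1 CPM, and ARC had 6.51 CPM, against 21.4 and 15.4 CPM. EGR1, a zinc finger factor of the same class, was the higher gene, at 30.4 CPM with GFP siRNA, against 12.0 and 12.4 CPM (adjusted p 0.188). FOS had 5.64 CPM, against 9.40 and 8.12 CPM, and JUN 423 CPM, against 1281 and 594 CPM, and neither stood apart.

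Genes of cholesterol synthesis and of lysosomes lay low as lists, with few members standing apart. Of 20 cholesterol synthesis genes 18 had a ratio below 0, as did 5641 of all 12467 genes, with a median of -0.58. Of the 20, 2 stood apart lower (10%, against 2.13% of all genes). LSS, which cyclises squalene epoxide to lanosterol, had 85.7 CPM with GFP siRNA and 103 CPM with HuR siRNA, against 309 and 202 CPM in untreated A and B. SQLE, which makes that epoxide, had 211 and 156 CPM, against 608 and 497 CPM. HMGCS1, which makes HMG-CoA early in the pathway, had 444 CPM, against 393 and 521 CPM. In edgeR none of the 20 was called (LSS 0.0614, SQLE 0.109), with 6 lower and 1 higher at an unadjusted p under 0.05, and DESeq2 called none. SQLE was 1.63 higher on the log2 scale than the mean of the 4SU libraries. In the wider SREBP list, 2 of 19 genes stood apart and both were higher (10.5%, against 3.01% of all genes). INSIG2, which retains the SREBP escort in the endoplasmic reticulum, had 34.5 CPM against 13 and 15.4 CPM. The ubiquitin ligase RNF145 had 124 CPM against 47.9 and 55.1 CPM. The median of this list was nevertheless -0.31, with 13 of the 19 ratios below 0. None of 20 tested was called by edgeR (adjusted p 0.151 for INSIG2 and 0.0881 for RNF145) or by DESeq2.

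Of 35 lysosomal genes 30 had a ratio below 0, as did 5641 of all 12467 genes, with a median of -0.52. Only 1 stood apart, lower (2.86%, against 2.13% of all genes). NEU1, the lysosomal sialidase, fell to 57.9 CPM with GFP siRNA, with 125 CPM under HuR siRNA, against 322 and 182 CPM in untreated A and B (log2 ratio -2.05, edgeR adjusted p 0.00618). The membrane protein LAMP1 had 166 CPM with GFP siRNA, against 314 and 277 CPM, and the protease CTSD 80.7 CPM, against 226 and 105 CPM. EdgeR and DESeq2 each called 1 gene lower of 36 tested, NEU1 in edgeR. At an unadjusted p under 0.05 in edgeR none was higher and 10 were lower, against 14.9% of all genes in both directions. The list's median was -0.70 against A and -0.34 against B, so its size depended on the untreated library, and it was -0.64 with the length trend removed.

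Hypoxia-responsive genes lay high as a list. Of 20 compared 4 stood apart higher (background 3.01%) and none lower, with a median of 0.38. STC1, the secreted hormone stanniocalcin, rose to 26.6 CPM with GFP siRNA and was at 27.8 CPM with HuR siRNA, against 5.18 and 7.69 CPM in untreated A and B (log2 ratio 2.01, edgeR adjusted p 0.0356, 0.118 without A). PDK1, which switches off pyruvate dehydrogenase, had 66.5 CPM, against 20.7 and 25.6 CPM, and MXI1, an antagonist of MYC, had 77.9 CPM, against 32.4 and 35.9 CPM. The fourth was INSIG2. Of 21 tested edgeR called STC1 alone (adjusted p 0.0614 for PDK1, 0.139 for MXI1 and 0.151 for INSIG2), and DESeq2 called none. At an unadjusted p under 0.05 in edgeR 6 were higher and 2 lower, against 14.9% of all genes in both directions. Other members did not stand apart: VEGFA, the vascular growth factor, had 64.0 CPM, against 89.4 and 71.4 CPM, and the glucose transporter SLC2A1 had 76.5 CPM, against 199 and 115 CPM. All 4 higher genes were also at least 2-fold above both 4SU libraries, by 1.29 to 3.14 on the log2 scale over their mean. That check shares the GFP siRNA library by which the genes were picked. It was passed by 54.4% of all higher genes and 11.5% of all genes compared.

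Histone genes had the lowest median of any list, over only 6 members, of which 3 stood apart lower (50%, against 2.13% of all genes). Of 52 such genes in the series only these 6 passed the filter on the average level. H2BC11, at 6.01 CPM on average, passed through the untreated libraries alone, so the share of 50% partly follows from the filter. Ratios were below 0 for 5 of the 6 and above 0 for 1. Their summed level did not lie below both untreated libraries: it was 335 CPM with GFP siRNA, against 491 and 309 CPM in A and B. Replication-dependent histone mRNAs normally end in a stem-loop and not in a poly(A) tail, so libraries of polyadenylated RNA see a minor form of them. H2BC5 fell to 8.14 CPM with GFP siRNA and was at 11.4 CPM with HuR siRNA, against 33.4 and 33.8 CPM in untreated A and B (log2 ratio -2.00, edgeR adjusted p 0.0112). H2BC12 fell to 9.77 CPM, against 40.5 and 22.7 CPM, and H2BC11 to 2.17 CPM, against 12.0 and 7.69 CPM (both 0.0473, and 0.197 and 0.159 without A). The siRNA libraries lay below both untreated libraries for these 3 genes, and GFP siRNA was 2.40 to 3.38 lower than the mean of the 4SU libraries on the log2 scale. The comparison with 4SU shares the GFP siRNA library by which the genes were picked. Of all lower genes 45.9% were at least 2-fold below both 4SU libraries. H2BC5 and H2BC12 belong to a family of near-identical genes and carried split tags.

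Proliferation genes gave no member standing apart. Of 40 genes of the G1/S transition and DNA replication, with a median of -0.11, the helicase subunit MCM7 had 771 CPM with GFP siRNA, against 1055 and 890 CPM in untreated A and B. Of 41 genes of G2 and mitosis, with a median of 0.26, TOP2A, the topoisomerase that resolves chromosomes, had 808 CPM, against 408 and 677 CPM. That second median was 0.62 against A and -0.03 against B, and its direction therefore rests on which untreated library is used. In edgeR none of the 40 and none of the 41 was called. At an unadjusted p under 0.05 there were 1 higher and 4 lower of the 40 and 3 higher of the 41, and DESeq2 called none of either list.

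Among short housekeeping transcripts, 7 of 75 cytosolic ribosomal protein genes were lower (9.33%, against 2.13% of all genes) and none higher, with a median of -0.38. That median was -0.55 against A and -0.23 against B. The same list had a median of 0.30 between HuR siRNA and the untreated libraries, so the siRNA libraries stood on opposite sides. RPS10 had 165 CPM with GFP siRNA and 415 CPM with HuR siRNA, against 577 and 492 CPM, and RPL11 had 2089 CPM with GFP siRNA, against 1564 and 1928 CPM. Of 65 respiratory chain genes 5 were lower (7.69%) and none higher, with a median of -0.31, which was -0.47 against A and -0.17 against B, among them COX6A1 of cytochrome oxidase, at 70.5 CPM against 282 and 156 CPM. None of the ribosomal genes was called by edgeR, and DESeq2 called 1 lower. At an unadjusted p under 0.05 in edgeR none was higher and 12 of 76 were lower, near the 14.9% of all genes in both directions. Of the respiratory chain genes edgeR called ATP5F1A alone. With the length trend removed the medians were -0.29 and -0.20. Many ribosomal protein genes have processed copies that can take tags, and their values are uncertain.

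**Figure D4:**
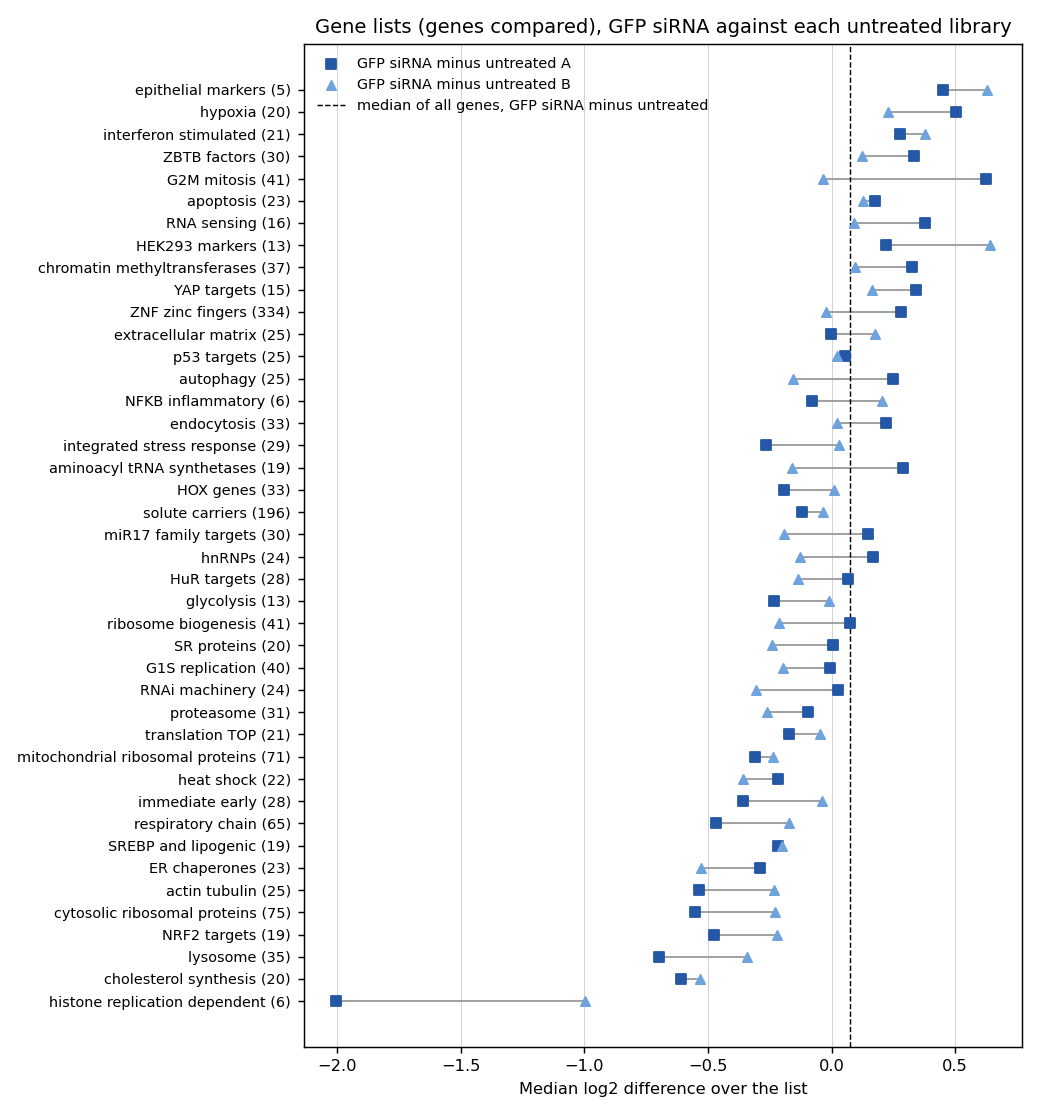
Median log2 difference over each gene list with at least 5 genes compared (number of genes in brackets) for GFP siRNA minus untreated A (squares) and GFP siRNA minus untreated B (triangles), joined by a line whose length is the effect of the choice of untreated library. The dashed line marks the median of all genes, 0.07. Histone genes lie at -2.00 and -0.999, cholesterol synthesis at -0.61 and -0.53, and hypoxia genes at 0.50 and 0.23.

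Genes that mark the cell line gave 4 of 13 standing apart higher (30.8%, against 3.01% of all genes) and none lower (against 2.13%). Beside NEFL and SALL2 these were LIN28B, an RNA-binding repressor of let-7 maturation, at 119 CPM with GFP siRNA and 44.7 CPM with HuR siRNA, against 29.2 and 58.6 CPM in untreated A and B, and ENO2, neuronal enolase, at 172 and 242 CPM, against 75.2 and 76.9 CPM. LIN28B and ENO2 were not called by edgeR (0.0614 and 0.106), and LIN28B and SALL2 no longer stood apart once the length trend was removed, nor did LIN28B under RLE or upper-quartile factors or after thinning to the untreated depth. The markers did not move as a set, since 7 of the 13 had a ratio above 0 and 6 below. HOXA9 had 172 CPM with GFP siRNA, against 308 and 218 CPM, and CKB 2184 CPM, against 4898 and 2400 CPM. EdgeR called VIM, which was too low to be among the 13, lower, and DESeq2 did not. The summed level of 18 markers was 5789 CPM with GFP siRNA, against 6488 and 4047 CPM. Of 33 HOX genes, which record position along the body axis, 2 were higher (6.06%, against 3.01% of all genes) and 1 lower (3.03%, against 2.13%). HOXB13 rose to 27.0 CPM with GFP siRNA, against 4.86 and 5.56 CPM (log2 ratio 2.30, edgeR adjusted p 0.00526), and was 0.42 above the mean of the 4SU libraries. HOXC11 had 8.79 CPM, against 3.24 and 3.42 CPM, and HOXB4 had 11.3 CPM, against 49.2 and 25.2 CPM.

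The large families lay near the background. Of 334 ZNF zinc finger genes 7 were higher (2.1%, against 3.01% of all genes) and 6 lower (1.8%, against 2.13%), with a median of 0.14. Of 196 solute carriers 5 were higher (2.55%) and 4 lower (2.04%), with a median of -0.02. The glucose transporter SLC2A3 rose to 34.5 CPM with GFP siRNA, against 10.7 and 8.55 CPM in untreated A and B (edgeR adjusted p 0.0459, 0.0509 without A, with split tags). SLC15A1, a peptide transporter with split tags, rose to 16.1 CPM, against 3.56 and 3.42 CPM (adjusted p 0.0456, 0.0948 without A). SLC24A5, an ion exchanger of pigment granules, had 22.2 CPM, against 5.18 and 8.12 CPM, and was not called.

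Some of the lowest ratios belonged to genes whose counts cannot be taken at face value. ACTG1, the cytoplasmic gamma actin, was listed at 1.52 CPM with GFP siRNA and 1.37 CPM with HuR siRNA, against 62.5 and 13.7 CPM in untreated A and B, and ATP5F1A, a subunit of ATP synthase, at 2.39 and 1.37 CPM, against 47.0 and 12.8 CPM. Both passed the edgeR test (adjusted p 2.45e-05 and 0.000293), but these genes are normally among the abundant mRNAs of a cell. ACTB, the beta actin, had 17 tags with GFP siRNA and 11 tags with HuR siRNA, against 11 and 0 tags. GAPDH, a glycolytic enzyme often used as a loading control, had 12.4 CPM with GFP siRNA, against 100 and 26.1 CPM, with an adjusted p of 0.0143 that became 0.380 without untreated A. The actins and GAPDH have many near-identical copies in the genome, to which tags could have gone, so all 4 genes are uncertain here. The untreated libraries differed between themselves by 2.16 for ACTG1 and 1.93 for GAPDH on the log2 scale.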

How the data were processed

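Per the file headers, the authors deposited for each library the number of sequence tags per transcript, under RefSeq or GenBank accessions, with the transcript length. These values are expected counts as deposited: they are not normalised, and tags that match several transcripts are split into fractions. The signal column of tags per length that the authors deposited beside them was not used. Aligner, genome build, annotation release and strand are left unnamed by the labels and headers.

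Counts were rounded to whole tags, and 16007 of 24992 features received a current gene symbol from RefSeq or GENCODE tables. Fractional counts touched transcripts holding 44.1% to 44.7% of the tags, and the named genes most touched by this are listed in the results. Levels were scaled with TMM factors over the GFP siRNA, HuR siRNA and untreated libraries and given as log2 CPM with a prior count of 2. Genes with an average of the group means of at least 5 CPM were compared by the 2-fold rule stated in the results. The quasi-likelihood test of edgeR 4.0.16 in R 4.3.3 was fitted to all 10 libraries in 6 groups, with Benjamini-Hochberg adjustment over all genes tested, and DESeq2 1.42.0 was an alternative. Code was tested on simulated data. Counting error alone enters the 95% intervals and the level that 3 tags stand for.

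Genes were named by rule: the 15 highest and 15 lowest ratios among named genes standing apart above the median level, up to 4 genes of each of 47 lists with the largest ratios among those standing apart (otherwise the most abundant member), and ELAVL1, GAPDH and ACTB. Further list members were named for their known role with their values in view. The comparison, its members and the lists were chosen with earlier results of these data known. Some genes that the rule or the lists would name are not reported here.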

Additional observations from a re-analysis of the deposited data

How the results depend on the processing

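The numbers of genes standing apart, 375 higher and 266 lower with GFP siRNA, stayed within 1.5 times under RLE or upper-quartile factors, library totals, prior counts of 0.5 and 5, thinning to 1 depth, removal of the length trend, transcripts in place of genes, and without the condition on the spread. They were 1027 and 533 with no filter on low levels, 140 and 161 at 20 CPM or more, 1052 and 852 at 1.5-fold, and 17 and 31 at 4-fold. Against a single untreated library they were 956 to 1496 higher and 429 to 1331 lower, the larger numbers without untreated B. With both siRNA libraries required beyond both untreated libraries 167 and 115 remained, and with the 4SU libraries added, a choice made after the data were seen, 204 and 122. The 1827 genes that differed between untreated A and B were 5185 with no filter and 949 at 20 CPM or more. Against 52 higher calls by edgeR, DESeq2 made 17, and there were 174 under no filter, 6 from the 3 compared libraries, 24 from the 6 without crosslinking, 150 with both siRNA libraries as 1 group, and 15 at an adjusted p of 0.01. Against 106 lower calls by edgeR there were 67 with library totals, 69 at 5 CPM or more, 24 from the 3 libraries, 59 from the 6, 222 with both siRNA libraries as 1 group, and 45 at 0.01. Without 1 untreated library the range was 73 to 648 higher and 72 to 752 lower, the larger numbers without B. The causes were not tested. Of the named genes' ratios under other settings 871 moved by no more than the standard deviation of the untreated libraries and 83 by more. Leaving out 1 untreated library cannot move a ratio by more than that, nor reverse a gene standing apart. Reversals were counted only for genes standing apart, and none was found. Some genes named by rule without standing apart did change sign. Without untreated B the log2 ratio of CLTC went from -0.01 to 0.41 and that of NCL from -0.19 to 0.18. No paired analysis was possible because the GFP siRNA library carries no replicate letter. Of the 3 compared libraries, depth limits the untreated ones more than the GFP siRNA library.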
